A study of Bos taurus with 30 samples.

Results

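Genes with RNA detected in some calves and little or none detected in others were described in the arcuate nucleus, a group of neurons and glia at the base of the hypothalamus. A gene was taken where its normalised value was 2 or more in at least 5 libraries and 0.1 or less in at least 5 others, and 87 of the 27607 genes in the table (0.315%) met this rule. Its members were thus chosen by their normalised values. A value of 2 or more is called on, a value of 0.1 or less is called off, and values in the interval are called between. The normalised value is the count of reads of a gene divided by the total of its library (CPM) after TMM scaling, a correction for differences in library composition. These thresholds were applied to the same 30 libraries that are described, so the presence of both states in a gene is a consequence of the choice and not a result.

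Polyadenylated RNA was sequenced from 30 Holstein-Friesian bull calves euthanised at 12 weeks of age, each library being 1 calf. From 2 weeks of age 15 calves (HI) had a daily allowance of milk replacer of 1.5 kg with concentrate to appetite, for a target gain of 1.0 kg per day. In the other 15 (MOD) the daily allowance was 0.5 kg each of milk replacer and concentrate, for a target gain of 0.5 kg per day. All calves were male and of a single breed, the diets were balanced for farm and sire, and the labels do not tell which calves shared a sire. Calves are named here by diet and replicate number, so that HI 7 is the seventh library labelled HI.

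The arcuate nucleus lies beside the third ventricle and the median eminence. It holds the AgRP and POMC neurons that respond to leptin and insulin, and the kisspeptin neurons that act on the release of gonadotropin releasing hormone. A dissected piece yields RNA of every cell it includes, and in such bulk RNA fewer cells of a type and less RNA per cell cannot be told apart. The genes are given by Ensembl identifier as deposited. In the RefSeq genes of ARS-UCD2.0, 0 of 37063 entries carried an Ensembl identifier and 0 of the identifiers used here matched. Names, functions, positions and sequences are therefore not given, and the labelled tissue was not checked against marker genes.

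Recovered reads numbered 15128646 to 29801795 per library. A value of 2 was 29.7 to 61.6 reads, and a gene called off had at most 3 reads in any library. No read at all was found in 715 of the 1149 calf and gene pairs called off (62.2%), while the lowest read count behind an on call was 32. A count of 0 allows up to 3 reads, which was a value of 0.0974 to 0.202 depending on the library. The other 434 off pairs held 1 to 3 reads, for which the limit is higher. Off therefore means at or near the limit of detection at this depth, and these limits cover counting error only. Over the 16698 genes tested, 3 libraries stood apart. The median Pearson r of log2 values with the other 29 libraries was 0.80 in HI 2, 0.87 in MOD 2 and 0.87 in MOD 12, against 0.91 in HI 7, 0.92 in MOD 4 and 0.96 to 0.98 in the other 25. In MOD 2, 505 genes at 2 or more exceeded every other library over 10-fold. Results without HI 2, MOD 2 and MOD 12 are given as well. They cover the number of genes that met the rule, the pattern group and the diet tests by limma and edgeR. They also cover the closest correlations, except those of ENSBTAG00000052865 and ENSBTAG00000054774.

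Few of the 87 genes had 2 cleanly separated states. Only ENSBTAG00000039664 had no calf between on and off. At most 3 calves were between in 18 genes, at most 5 in 30 genes, and 10 or more in 36 genes. Over all genes and calves, 701 pairs were on, 1149 were off and 760 (29.1%) were between. When the 30 values of a gene were sorted, the widest step between neighbouring calves exceeded 10-fold, on a scale of value plus 0.1, in 13 of the 87 genes. The name on and off thus describes the rule, and most of these genes had intermediate calves.

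The edges of the rule were close on both sides. The fifth-highest value of ENSBTAG00000000576, which was included, was 2.01 and that of ENSBTAG00000024272, which was not, was 1.996. The fifth-lowest value was 0.0986 in the included ENSBTAG00000033886 and 0.101 in ENSBTAG00000022826 outside. Exactly 5 calves were on in 24 of the 87 genes and exactly 5 were off in 6. A further 24 genes were short by 1 on calf and 13 by 1 off calf.

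The number of these genes that were on differed widely between calves. In 21 libraries 6 to 13 of the 87 genes were on. In the other 9 libraries, HI 2, HI 6, HI 7, HI 9, HI 14, MOD 2, MOD 4, MOD 9 and MOD 12, between 35 and 71 genes were on, and no library lay in the interval from 14 to 34. These 9 samples, 5 HI and 4 MOD, are not a group of the study. They were recognised from the same values, and no test was made between them and the rest. Their depth of 16060892 to 27485168 reads lay within the 15128646 to 29801795 reads of the other 21. The 5 libraries of lowest median r with the rest, HI 2, MOD 2, MOD 12, HI 7 and MOD 4, were all among the 9, and the part of this in the number of genes on was not tested.

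**Figure D1:**
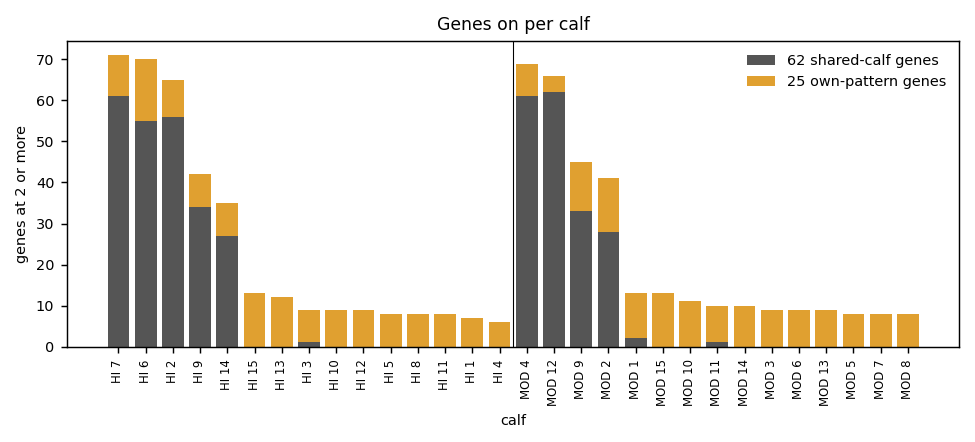
Number of the 87 genes at a normalised value of 2 or more in each calf (vertical axis), with HI calves left and MOD calves right of the line, each ordered by that number. Dark bars are the 62 genes on almost only in 9 libraries and light bars the other 25, called own-pattern genes below. The 9 tall bars stand at 35 to 71 genes and the others at 6 to 13, and the light part ranges from 4 to 15 genes.

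By this feature the genes fell into 2 sets, a division made after the values were seen. In 62 genes at most 1 calf outside the 9 libraries was on (0 calves in 58 genes and 1 in 4 genes), and these are called shared-calf genes. The other 25 genes were on in 3 or more of the 21 remaining calves and are called own-pattern genes.

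The 62 shared-calf genes had few on calls outside the 9 libraries by their choice, and the counts that follow describe that choice. In the 21 remaining calves 893 of 1302 gene and calf pairs were off, 405 were between and 4 were on. In HI 2, HI 6, HI 7, MOD 4 and MOD 12 they were on in 295 of 310 pairs, with 55 to 62 of the 62 genes on in each calf. In HI 9, HI 14, MOD 2 and MOD 9 they were on in 122 of 248 pairs, between in 119 and off in 7. All 9 libraries were on in 14 of the 62 genes. In 48 genes the lowest of the 9 libraries was above the highest of the 21, although only part of those values reached 2. Both the libraries and the genes were picked from these values, and the same count was not made over all genes compared. Likeness to the shared-calf genes was not confined to them. Of the 16611 genes compared that did not meet the rule, 145 had an r over 0.9 with the mean of the shared-calf genes.

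**Figure D2:**
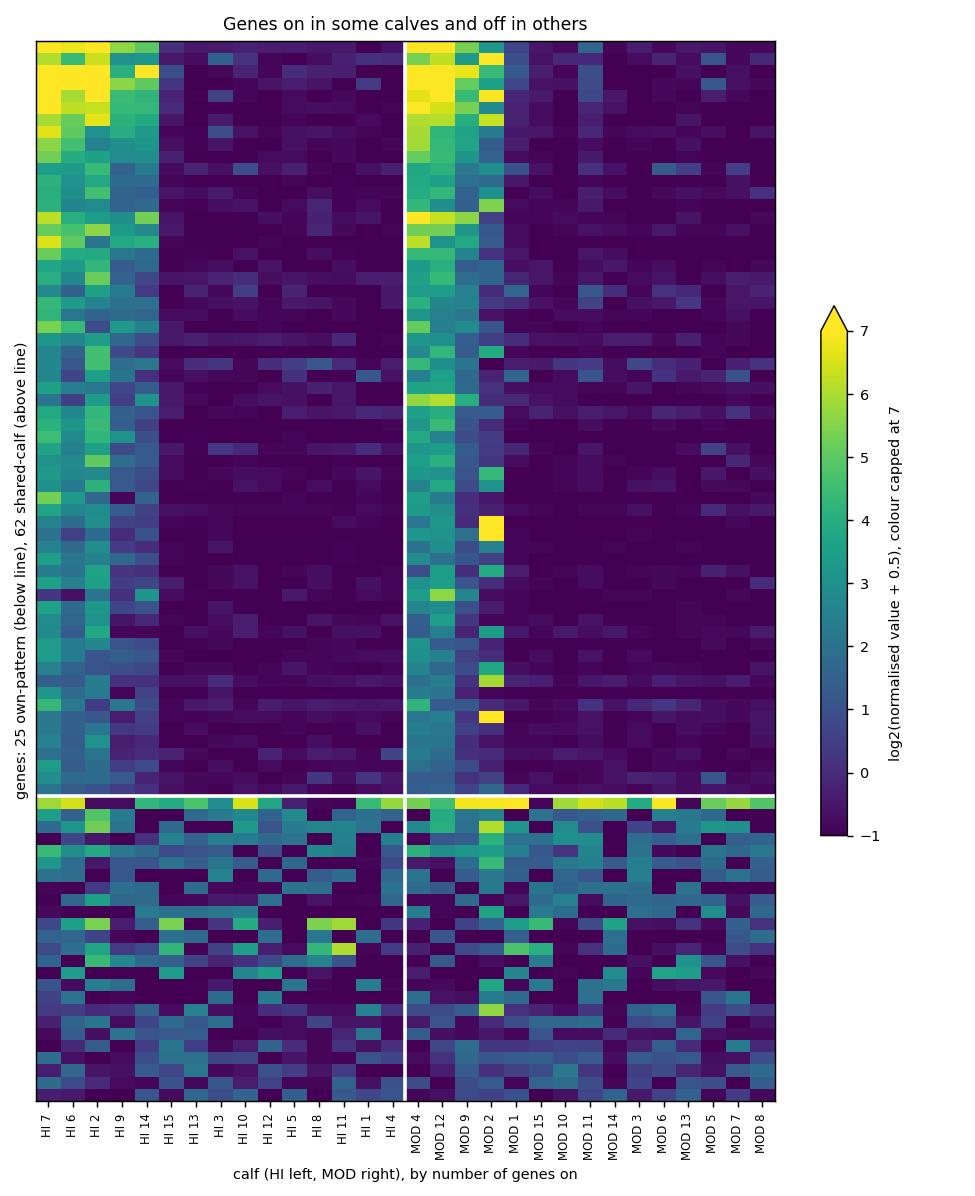
Each row is 1 of the 87 genes and each column 1 calf, HI left and MOD right of the vertical line. Colour is log2(normalised value + 0.5), capped at 7. Above the horizontal line the 62 shared-calf genes are bright mostly within the same 9 columns, not in all 9 for every gene. Below it the 25 own-pattern genes are bright in different columns from gene to gene, some of them in most of these 9.

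ENSBTAG00000010889 had the highest levels among the on calves of any shared-calf gene, with a median on value of 287.9. It stood at 1075 in HI 7, 1001 in MOD 12, 482.7 in MOD 4, 465.4 in HI 2 and 287.9 in HI 6. Values were lower in HI 14 (143.6), MOD 9 (109.1), MOD 2 (20.3) and HI 9 (15.7), and the other 21 calves ranged from 0 to 1.92. The 9 libraries and the other 21 did not overlap in this gene.

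The step was widest among shared-calf genes without a single extreme library in ENSBTAG00000019448. Its values were 102 in HI 2, 80.7 in MOD 2, 68.9 in MOD 12, 65.2 in MOD 4, 61.5 in HI 7 and 35.0 in HI 6. HI 9 (17.1), MOD 9 (15.9) and HI 14 (14.2) followed, and no other calf exceeded 0.348. The calves above the step were 5 HI and 4 MOD.

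By the rule for a shared pattern, 2 genes were linked where at least 25 calves had a clear state in both and no calf was in opposite states. Linked genes formed 1 group of 19, all of them shared-calf genes. Without HI 2, MOD 2 and MOD 12, 7 of the 19 remained linked, with 25 clear calves then required of 27. Its 4 genes of highest median on value were ENSBTAG00000046938 (15.1), ENSBTAG00000047043 (12.7), ENSBTAG00000021838 (11.4) and ENSBTAG00000007990 (11.05). ENSBTAG00000046938 was on in 8 calves, at 3.83 to 96.1, and 21 calves were off at 0.0871 or less. Only MOD 2 lay between, at 1.83.

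The 9 libraries did not keep 1 order over the shared-calf genes. Of the 62 genes 24 were highest in HI 7, HI 2 came first in 17, MOD 2 in 9, MOD 12 in 7 and MOD 4 in 5. The value in HI 7 was 0.198 to 29.9 times that in HI 2, with a median of 1.10, and it was more than 5 times as high in 9 genes. ENSBTAG00000046938 was at 96.1 in HI 7 and 3.83 in HI 2. ENSBTAG00000013928 went the other way, at 5.79 in HI 7 and 24.1 in HI 2.

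MOD 2 had the most uneven values. It was the lowest of the 9 libraries in 34 of the 62 genes and the highest in 9. In 4 genes it exceeded every other library more than 10-fold. ENSBTAG00000018843 was at 4398 in MOD 2 and at 8.96 in MOD 12, the next library. ENSBTAG00000031647 was at 610 in MOD 2 and 4.84 in MOD 12, ENSBTAG00000009501 at 136.3 and 8.68 in MOD 4, and ENSBTAG00000026236 at 60.4 and 4.78 in HI 2. All 4 were on in 4 or 5 other libraries of the 9, and without MOD 2 the 2 genes with 4 such libraries, ENSBTAG00000031647 and ENSBTAG00000026236, had too few on calves for the rule.

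Leaving out these libraries reduced the shared-calf genes more than the own-pattern genes. Without HI 2, MOD 2 and MOD 12 together, 52 genes met the rule, 27 of the shared-calf genes and all 25 own-pattern genes. With the 9 libraries set aside and the rule applied to the 21 others, 17 genes met it, all of them own-pattern genes, so that 17 of the 25 remained. The loss of shared-calf genes under this second choice follows from how they were defined. Their loss under the first choice follows largely from it too, because HI 2, MOD 2 and MOD 12 are among the 9 libraries.

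The 25 own-pattern genes were on in different calves from gene to gene. They were on in 5 to 23 calves and off in 5 to 20. Each calf had 4 to 15 of them on, 4 to 15 in the 9 libraries and 6 to 13 in the 21. Of the 300 pairs among them, 232 had at least 10 calves with a clear state in both genes. The share of such calves in the same state had a median of 50% over these pairs, and every clear calf was in the same state in 1 pair and in opposite states in 1 pair. The median over the highest on values was 12.2 in the own-pattern genes and 20.3 in the shared-calf genes. Some own-pattern genes were on in most of the 9 libraries. ENSBTAG00000054774 was on in 9 of the 9 and 8 of the 21, and ENSBTAG00000019018 in 8 and 11. ENSBTAG00000047175 was on in 0 of the 9. Against the mean of the shared-calf genes, r reached 0.71 in an own-pattern gene and was as low as 0.64 in a shared-calf gene. By this measure the 2 sets overlapped.

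ENSBTAG00000039664 was the single gene without an intermediate calf. It was on in 13 calves, HI 3, HI 10, HI 13, HI 14, HI 15, MOD 2, MOD 3, MOD 4, MOD 5, MOD 6, MOD 8, MOD 10 and MOD 15. Values ran from 3.26 to 4.94 in the 5 HI calves and from 2.73 to 12.2 in the 8 MOD calves. The other 17 calves were at 0.0752 or less, with 4 reads in all among them and 14 of them without a read. The highest value belonged to MOD 2, and the next was 7.02 in MOD 5.

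ENSBTAG00000048334 had a similar form with fewer calves on. Its 8 on calves were HI 10 (6.05), HI 15 (10.1), HI 6 (10.3), HI 12 (10.6), MOD 1 (5.75), MOD 14 (6.76), MOD 13 (10.6) and MOD 6 (12.3). Of the other 22 calves 20 were off, and HI 8 (0.163) and MOD 4 (0.280) were just above the off limit. Nothing lay in the interval from 0.280 to 5.75, and every on calf had 114 reads or more.

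ENSBTAG00000048514 and ENSBTAG00000021565 had no read in any of their off calves. In ENSBTAG00000048514 these were 12 calves, 7 HI and 5 MOD, while the other 18 ranged from 1.78 to 5.16. Only HI 9 (1.78), MOD 11 (1.81) and MOD 8, at just under 2, were between. In ENSBTAG00000021565 the calves without a read were HI 8, HI 14, HI 15, MOD 1, MOD 3, MOD 4, MOD 7 and MOD 8, and the other 22 ranged from 1.78 to 28.1. The 3 highest of these were HI 2 (28.1), MOD 12 (14.7) and HI 7 (10.6), and the rest were at 6.59 or less. The same absence of reads in all off calves was found in ENSBTAG00000019018 (7 calves) and ENSBTAG00000009656 (11 calves), which makes 4 of the 25 own-pattern genes and 0 of the 62 shared-calf genes. The shared-calf genes had more off calves per gene, with a median of 15 against 8. No read was found in 61.0% of their off pairs and in 66.7% of those of the own-pattern genes.

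ENSBTAG00000050214 was on in 14 calves within a narrow range, from 2.48 in MOD 10 to 4.24 in MOD 2, a ratio of 1.71. It was off in 14 calves at 0.0607 or less. The 2 calves between were HI 2 (0.775) and MOD 12 (1.90). ENSBTAG00000011985 had a comparable range, with 10 on calves from 2.13 to 3.92 and 17 off calves that held 1 read in all. HI 2 (1.03), MOD 12 (1.69) and MOD 7 (1.75) lay between.

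**Figure D3:**
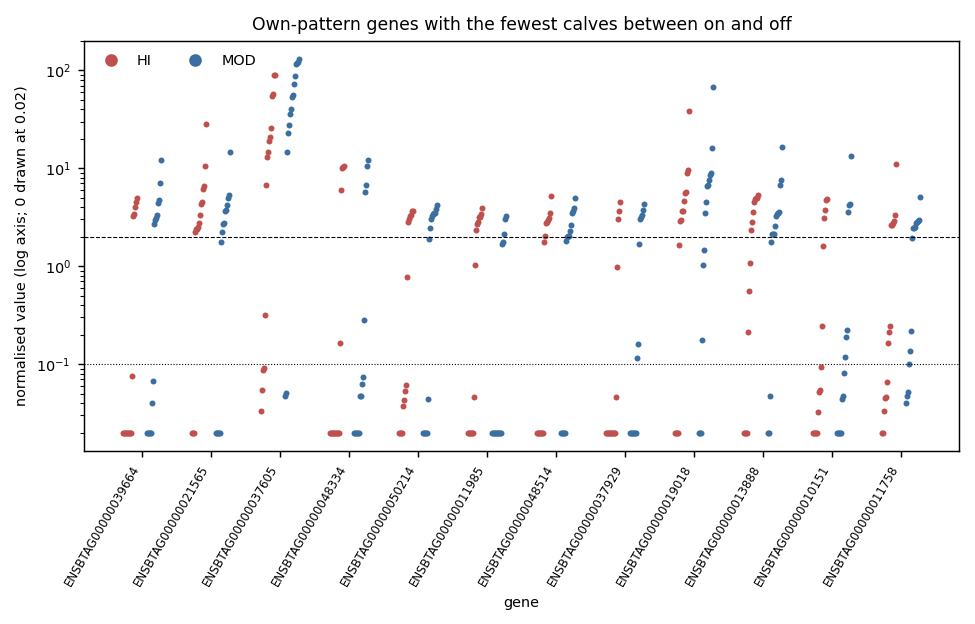
Normalised value (logarithmic vertical axis, 0 drawn at 0.02) of the 12 own-pattern genes with the fewest calves between on and off, each point being 1 calf, HI left and MOD right within a gene. The dashed line is the on limit of 2 and the dotted line the off limit of 0.1. In ENSBTAG00000039664 no calf lies in the interval, and both diets are present above and below it in all 12 genes.

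Other own-pattern genes had many calves between on and off. ENSBTAG00000052865 had 5 calves on, 5 off and 20 between, with HI values from 0 to 4.12 and MOD values from 0 to 4.02. ENSBTAG00000033740 had 19 calves between and ENSBTAG00000051760 had 18. In all, 11 of the 25 had 10 or more calves between. The widest step between neighbouring calves was under 2-fold, on the scale of value plus 0.1, in 4 of these 11 and set a single calf apart in 2. Some of the 11 had a step at another level than the limits of the rule, as ENSBTAG00000017220 from 2.35 to 10.1 with 9 calves above it and ENSBTAG00000015274 from 3.11 to 11.04 with 7.

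For 6 of the 25 own-pattern genes the highest r with another gene was over 0.8. These relations were picked for their r, so no p is given. The first joined ENSBTAG00000037929 to ENSBTAG00000001125, which is in the next row of the deposited table and outside the 87 genes. Pearson r of the log2 values was 0.96 over 30 calves, 0.96 without the 2 calves farthest from the median of ENSBTAG00000037929 and 0.97 without HI 2, MOD 2 and MOD 12, and Spearman rho was 0.81. ENSBTAG00000037929 was at 3.004 to 4.58 in 8 calves, at 0.978 in HI 7 and 1.70 in MOD 5, and at 0.161 or less in the other 20. In the same 10 calves ENSBTAG00000001125 was at 0.263 to 1.28, and in the other 20 at 0.0522 or less. All 10 calves that were high in ENSBTAG00000037929 were thus also the 10 highest in its neighbour, at a lower level. What the row order of the table follows is not given in the sources used here.

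The second relation joined ENSBTAG00000017220 and ENSBTAG00000015274, which are 2128 rows apart. All 15 calves with a clear state in both were in the same state. Pearson r was 0.96 and Spearman rho 0.95 over 30 calves, and r was 0.94 without the 2 calves farthest from the median of ENSBTAG00000017220 and 0.95 without HI 2, MOD 2 and MOD 12. HI 11 had the highest value of both, at 57.1 and 65.0. HI 8 (42.1 and 19.3), HI 15 (41.9 and 18.7), HI 2 (41.4 and 12.2), MOD 15 (20.3 and 16.1), HI 10 (15.0 and 11.04) and MOD 1 (10.1 and 26.9) were also above 10 in both genes. No further calf was. HI 1, HI 5, HI 13, MOD 5, MOD 10 and MOD 12 were off in both. Each gene was the closest of the other among the 16698 genes compared, and whether they share reads through near-identical sequence was not tested.

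ENSBTAG00000013888 was followed by ENSBTAG00000049695, outside the 87 genes, with an r of 0.87 and a rho of 0.84 over 30 calves, and an r of 0.84 without the 2 farthest calves. Without HI 2, MOD 2 and MOD 12 the r of this pair was 0.98. ENSBTAG00000052865 had an r of 0.80 with ENSBTAG00000001976, which is not given without the 3 libraries. The relation of ENSBTAG00000055240 to ENSBTAG00000003408 rested on few calves, with an r of 0.82 over 30 calves, 0.47 without the 2 farthest and 0.62 without the 3 libraries.

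A further relation was inverse, and it is described because both genes were among the 87 and near each other in the table. The lowest r of an own-pattern gene outside this pair was -0.80, between ENSBTAG00000054774 and ENSBTAG00000015232. ENSBTAG00000037605, on in 23 calves, was the own-pattern gene of highest median on value (52.9), and ENSBTAG00000009656 is 4 rows before it in the table. Pearson r was -0.81 and Spearman rho -0.74 over 30 calves, and r was -0.82 without the 2 calves farthest from the median of ENSBTAG00000037605 and -0.80 without HI 2, MOD 2 and MOD 12. Each was the lowest r of the other among all genes compared. In HI 2, HI 5, HI 8, HI 9, HI 11, MOD 13 and MOD 15 ENSBTAG00000037605 was at 0.321 or less and ENSBTAG00000009656 at 1.58 to 20.96. In the other 23 calves ENSBTAG00000037605 was at 6.74 to 129.5 and ENSBTAG00000009656 at 0 to 2.82. Of 19 calves with a clear state in both genes, 16 were in opposite states and 3, HI 7, HI 14 and HI 15, were on in both.

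**Figure D4:**
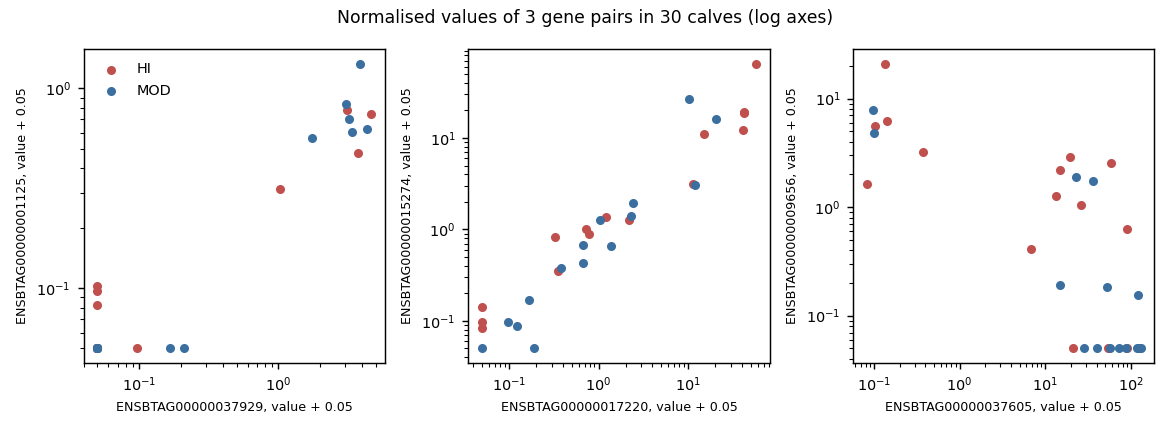
Normalised value plus 0.05 of 1 gene against another in 30 calves on logarithmic axes, HI in red and MOD in blue. In the left and middle panels calves high in 1 gene are high in the other (r of 0.96 in both), and in the right panel the 7 calves lowest in ENSBTAG00000037605 lie between 1.58 and 20.96 in ENSBTAG00000009656.

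No pair of genes with 25 or more clear calves was in opposite states in all of them. The pairs nearest to this were ENSBTAG00000013888 with the shared-calf genes ENSBTAG00000046938 (20 of 25 clear calves), ENSBTAG00000009501 (19 of 25) and ENSBTAG00000013928 (19 of 25). The highest r of an own-pattern gene with any other gene compared was under 0.7 in 15 of the 25 genes and lowest for ENSBTAG00000050214, at 0.54.

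The diet comparison addressed whether plane of nutrition moved these genes, and the rule that chose them made no use of diet. All 87 genes were on in calves of both diets and off in calves of both diets. The number of on calves differed by 2 or fewer between HI and MOD in 78 genes. More HI than MOD calves were on in 53 genes, more MOD than HI in 22, and the number was equal in 12. For the shared-calf genes, these numbers were 43, 9 and 10. These genes were on almost only within the same 5 HI and 4 MOD calves, though most were not on in all of them. They therefore do not count as separate observations. For the own-pattern genes the numbers were 10, 13 and 2.

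**Figure D5:**
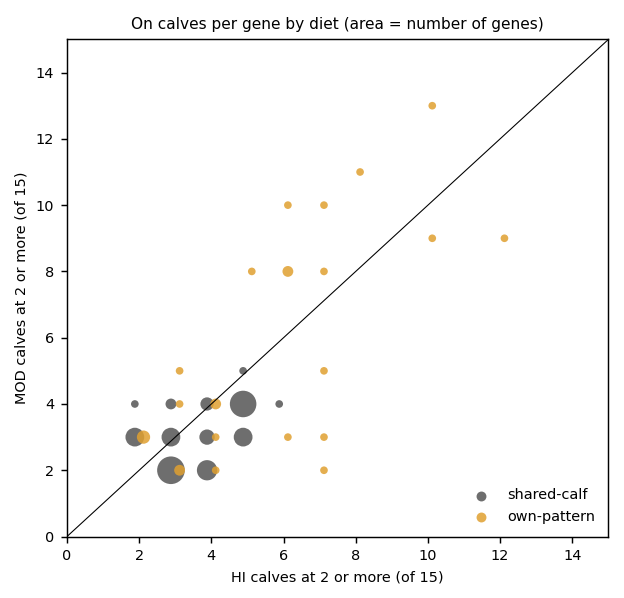
Number of HI calves (horizontal axis) and MOD calves (vertical axis), of 15 each, in which a gene was on. Point area is the number of genes at that position, dark for shared-calf and light for own-pattern genes, and the line marks equal numbers. Most genes lie within 2 calves of the line, and the gene farthest below it has 7 HI and 2 MOD calves on.

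In limma on log2(value + 0.5), 0 of the 87 genes passed an adjusted p below 0.1 with more than 1.5-fold change, as did 0 of all 16698 genes tested (0%). At an unadjusted p under 0.05 there was 1 of the 87 genes, against 0.725% of all genes tested. This gene was higher in HI, as were 0.317% of all genes at that p, and 0 of the 87 were lower in HI, against 0.407% of all genes. The median log2 difference, HI minus MOD, was 0.18 over the 87 genes and -0.01 over all genes. It was 0.28 over the shared-calf genes, of which 48 of 62 were above 0, and -0.26 over the own-pattern genes, of which 7 of 25 were above 0. These numbers of genes are not a test of diet, because the shared-calf genes were on almost only in the same calves. Among all genes 45.4% were above 0. The 0.725% of all genes at that unadjusted p is a smaller share than a limit of 0.05 would pass by chance. With HI 2 alone left out of the limma fit, 702 of 16643 genes reached it, and again 0 were called. Of the 87, 0 then reached it, and their smallest adjusted p was 0.763. The calls of 0 therefore do not show that diet had no effect. The paper reports genes differing between the diets by edgeR at the same limits of adjusted p and fold change.

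The share of calves on was compared by Fisher's exact test, two-sided, in every gene with at least 5 calves at 2 or more and 5 below. At an adjusted p under 0.1, 0 of the 87 genes were called and 0 of all 1522 genes tested (0%). At an unadjusted p under 0.05 there were 0 of the 87 genes and 1.05% of all genes tested. With 15 calves per diet these tests cannot show that the diets had equal shares.

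The smallest p in either test belonged to ENSBTAG00000009656, the lower partner of the inverse pair. Its values ranged from 0 to 20.96 in HI with a median of 1.58, and from 0 to 7.87 in MOD with a median of 0, so the diets overlapped widely. The log2 difference was 1.19 with an SE of 0.51 (p = 0.0271 in limma, adjusted p = 1.000). It was on in 7 of 15 HI and 2 of 15 MOD calves (Fisher's exact test, p = 0.109, adjusted p = 1). Without HI 2, MOD 2 and MOD 12 the log2 difference was 1.01.

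ENSBTAG00000037605 had the smallest p among the genes lower in HI. Its range was 0.0329 to 90.4 in HI with a median of 14.6, and 0.0477 to 129.5 in MOD with a median of 52.9. The log2 difference was -1.93 with an SE of 0.95 (p = 0.0502 in limma, adjusted p = 1.000), and 10 HI and 13 MOD calves were on (Fisher's exact test, p = 0.390, adjusted p = 1). Because the pair is inversely related, its 2 differences of opposite sign are not independent. Without HI 2, MOD 2 and MOD 12 the log2 difference was -1.54.

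The next genes in each direction were farther from the threshold. ENSBTAG00000015274 had a median of 1.22 in HI and 0.605 in MOD, with a log2 difference of 0.99 and an SE of 0.70 (p = 0.168 in limma, adjusted p = 1.000). ENSBTAG00000039664 had a median of 0 in HI and 2.73 in MOD, with a log2 difference of -0.72 and an SE of 0.58 (p = 0.222 in limma, adjusted p = 1.000). By numbers of calves, ENSBTAG00000011985 was on in 7 HI and 3 MOD calves (Fisher's exact test, p = 0.245) and ENSBTAG00000051698 in 6 HI and 10 MOD calves (Fisher's exact test, p = 0.272). Both had an adjusted p of 1.

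With the quasi-likelihood test of edgeR on recovered reads, 0 of the 87 genes were called and 0.246% of all genes. At an unadjusted p under 0.05 it gave 6 of the 87 genes, against 2.84% of all genes tested. In 5 of these 6, ENSBTAG00000018843, ENSBTAG00000031647, ENSBTAG00000009501, ENSBTAG00000026236 and ENSBTAG00000055240, MOD 2 was the highest library. The sixth was ENSBTAG00000017220, highest in HI 11. The smallest adjusted p among the 87 was 0.110, for ENSBTAG00000018843. In limma without HI 2, MOD 2 and MOD 12, 83 of the 87 genes entered the fit, 0 were called and 0 had an unadjusted p under 0.05. The quasi-likelihood test without these libraries also called 0 of the 83 and 0 of all 16543 genes tested, with 0 of the 83 and 368 of all genes at an unadjusted p under 0.05.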

How the data were processed

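The deposited table is a normalised signal of 27607 Ensembl genes in 30 columns, which the authors made by trimming with Cutadapt, aligning to ARS-UCD1.2 and counting with STAR, and TMM scaling in edgeR, per the labels and the methods. The submitters' processing notes give STAR 2.6.1, cutadapt 2.6 and edgeR 3.5. All values above 0 were whole multiples, within 0.01, of the smallest value of their column, so reads were recovered by division, and 0 columns were left unused. Values were compared on log2(value + 0.5) with limma 3.58.1 (mean-dependent prior variance), for genes at 0.5 or more in at least 5 libraries, and adjusted by Benjamini-Hochberg over all genes tested. edgeR 4.0.16 and DESeq2 1.42.0 were run on recovered reads. R 4.3.3, Python 3.11.15, pandas 2.3.3 and scipy 1.17.1 were used, and the fits were tested on simulated data. The closest libraries, MOD 3 and MOD 8, differed by a chi-square of 10.5 per gene on average, so none was a repeat of another library. Separate preparations from the same calf cannot be recognised by this value.

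The thresholds and the tests were chosen with earlier results of these data known. Genes named are those without an intermediate calf, the 4 of highest median on value in the largest pattern group, the 2 of smallest p in each direction of either test, the pairs nearest to a mirror, the gene with the most on calves, and the 2 other genes most like the largest group. Other named genes, the division into 62 and 25 genes and the 9 libraries were chosen after their values were seen. Lists of named marker genes need symbols and were not used.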

Additional observations from a re-analysis of the deposited data

How the results depend on the processing

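The number of genes that met the rule, 87, depended on its limits. It was 160 with an on limit of 1, 43 with an on limit of 5, 265 with an off limit of 0.5, 200 with 3 libraries required in each state and 29 with 8. An off limit of 0 gave 58 genes, and CPM without TMM and median-ratio scaling gave 84 each. Leaving out 1 library at a time gave 67 to 87 genes, the fewest without HI 7. Among added alternatives, the 21 libraries with few of these genes on gave 17, and leaving out HI 2, MOD 2 and MOD 12 together gave 52. Genes in pattern groups numbered 19, 43 where 20 clear calves were enough and 64 by average linkage at an r of 0.7, an alternative added later. Without HI 2, MOD 2 and MOD 12, also added later, they numbered 7. The linkage joined the shared-calf genes in groups of 58 and 4 and left 23 own-pattern genes alone. Leaving out 1 library gave 15 to 19. Of all genes, limma called 0 between the diets, as did each of its alternatives with other pseudocounts, filters, scaling or libraries, and the quasi-likelihood test on recovered reads called 41, in all of which MOD 2 was the highest library, and 0 without HI 2, MOD 2 and MOD 12. DESeq2 called 0, and 284 genes had p below 0.05 before adjustment. Among the 87 genes 0 were called in any setting run for limma or Fisher's exact test, the 30 that left out 1 library included. The log2 differences of the 4 genes given for limma kept their direction in all 38 or 39 settings, with adjusted p from 0.763 to 1.000. No paired analysis was possible because replicate numbers are names in accession order and pair no calves across diets. Depth limits the off state, because a count of 0 allows up to 3 reads and counts of 1 to 3 allow more.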

Other observations

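Genes outside the 87 followed the same libraries. ENSBTAG00000021160 was the gene whose log2 values were most like the mean of the pattern group of 19, with a Pearson r of 0.99 and a Spearman rho of 0.70 over 30 calves. It was at 16.9 to 32.7 in HI 2, HI 6, HI 7, MOD 4 and MOD 12, at 5.26 to 6.83 in HI 9, HI 14, MOD 2 and MOD 9, and at 0 to 0.478 in the other 21 calves. ENSBTAG00000003020 was next, with an r of 0.99 and a rho of 0.67, at 7.68 to 20.8, 2.43 to 3.24 and 0 to 0.404 in the same calves. Both were on in the same 9 libraries and missed the rule because only 3 and 4 calves were off. Against the mean of the 62 shared-calf genes, r was over 0.9 in 145 and under -0.9 in 5 of the 16611 other genes compared, and it rests on the difference between 9 and 21 samples.

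Genes of the 87 that stood within 5 rows of each other in the table formed 7 pairs. In 4 of them both were shared-calf genes, and all their clear calves were in the same state, for example 26 of 26 in ENSBTAG00000009501 and ENSBTAG00000046938. This agreement follows largely from the choice of shared-calf genes, and the part of nearness in the table was not tested. Pairs of a shared-calf and an own-pattern gene were less alike, which also follows largely from how the genes were divided. ENSBTAG00000047043, a shared-calf gene, and ENSBTAG00000051698, an own-pattern gene in the next row, were in opposite states in 11 of 18 clear calves.

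Of the 200 genes with the highest standard deviation of log2 value, 54 were among the 87 genes. This is 27% of that list and 62.1% of the 87, which make up 0.315% of the whole table. The rule asks for values far apart within a gene, so this overlap follows largely from the choice of genes. None of the 200 genes of highest mean value was among the 87.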
